A study of Mus musculus with 6 samples.

Results

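The Rab genes encode small GTPases of the Ras superfamily that direct membrane traffic. All genes of the table whose symbol is Rab, a number and at most 1 letter were taken, which gave 56 of the 23337 genes listed. Transcript levels were measured by RNA sequencing in endothelial cells of the blood vessels of the spleen, sorted as CD31+ CD45- from collagenase-digested spleens of C57BL/6 mice, either wild type (3 libraries) or Stab1-/- (3 libraries). The age and sex of the mice, how many animals went into a library and the cells in which Stab1 was lost are not given in the sources used here, and no promoter or Cre is named. Nothing states that the libraries came from separate mice, so the p-values measure the spread between these libraries, which may be technical. The libraries are called WT 1, WT 3 and WT 4, and KO 2, KO 3 and KO 4, after the numbers in the table.

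A Rab protein is held on the surface of an organelle by prenyl groups while it carries GTP, binds effectors there (tethers, motor adaptors and coat components), and is taken off by GDI after a GTPase-activating protein has brought about hydrolysis. Guanine nucleotide exchange factors load it again. Different Rabs mark different compartments: Rab1 and Rab2 the path between the endoplasmic reticulum and the Golgi, Rab6 the Golgi, Rab5 the early endosome, Rab7 the late endosome and lysosome, Rab11 the recycling endosome and Rab27 secretory granules. Stab1 encodes stabilin-1 (Clever-1), a scavenger receptor of sinusoidal endothelium that is itself taken up and recycled through endosomes, so the comparison asks how the traffic genes of these cells stand without that receptor.

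Between 40274424 (WT 1) and 51498038 (KO 3) reads per library were assigned to genes. Levels are RPKM, reads scaled to the length of the gene and the depth of the library, which can be set side by side between genes. The deleted gene itself, Stab1, had 21.6, 43.6 and 31.4 RPKM in the wild-type libraries, in the order just given, against 2.32, 2.62 and 2.49 RPKM in those of the knockout, without overlap (log2 fold change -3.40 ± 0.22 SE, limma adjusted p = 7.15e-05). All 12 endothelial markers passed the filter and none was called (limma), and their summed level ran from 2690 to 3260 RPKM in wild type and from 2960 to 3390 RPKM in knockout. No marker of 12 for other leukocytes passed the filter, and their sum reached at most 4.01 RPKM in wild type and 11.7 RPKM in knockout. In KO 3 and KO 4, S100a8 had 5.32 and 3.87 RPKM and S100a9 had 4.6 and 3.56 RPKM. In wild type they reached at most 0.807 and 0.932 RPKM.

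Among the Rab genes tested, 1 was called. Rab6b, the Rab6 form best known from neurons, was 5.24 times lower in the knockout libraries, while its close relative Rab6a, the form found in most cells, did not pass the test. Of the 56 Rab genes, 42 reached 1 RPKM in 3 or more libraries and were tested among 11035 genes. None of them was called higher and 1 was called lower at an adjusted p of 0.05 (limma with Benjamini-Hochberg adjustment over all genes tested). Over all genes tested, 1.94% were called, 0.671% higher and 1.27% lower, so 1 of 42 (2.38%) is near the background. With libraries weighted by their quality, limma called 19 of the 42 (7 higher and 12 lower), where it called 33.1% of all genes. Without adjustment, 6 of the 42 (14.3%) had a p under 0.05, against 15.7% of all genes.

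Rab6b (gene ID 270192) lies on the plus strand at chr9:103111667-103185276 of GRCm38 (mm10). Its coding sequence and that of Rab6a (chr7:100607575-100641268) have 627 bases each in 8 exons, and 492 of them (78.5%) are the same. The genes are compared here because reads of 1 paralog can be given to the other. Below are the pair of coding exon 5, one of those that hold the longest identical stretch (14 bases), and that of coding exon 7, the least alike. They are printed 5′ to 3′ on the plus strand from GENCODE M21 transcripts placed on GRCm38, and capitals mark the bases that differ between the paralogs.
Rab6a coding exon 5: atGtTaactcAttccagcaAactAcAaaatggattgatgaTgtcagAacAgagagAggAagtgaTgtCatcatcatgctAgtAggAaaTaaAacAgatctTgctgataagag
Rab6b coding exon 5: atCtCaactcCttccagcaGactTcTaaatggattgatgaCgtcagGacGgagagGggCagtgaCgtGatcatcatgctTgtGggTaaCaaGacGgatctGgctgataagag
Rab6a coding exon 7: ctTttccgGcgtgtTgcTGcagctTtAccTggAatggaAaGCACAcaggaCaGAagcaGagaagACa
Rab6b coding exon 7: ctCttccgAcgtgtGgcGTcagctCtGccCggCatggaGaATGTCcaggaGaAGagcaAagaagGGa

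The exon 5 pair lies at chr7:100631742-100631853 and chr9:103162542-103162653, is 112 bases long and differs at 20 bases. The exon 7 pair lies at chr7:100636695-100636761 and chr9:103167106-103167172, is 67 bases long and differs at 21 bases (68.7% identical). Over the whole transcripts, the 3214 bases of the Rab6a transcript used here hold none of the 4983 stretches of 25 bases of the 5007-base Rab6b transcript, and none of its 4958 stretches of 50 bases. A read of that length that matches Rab6b without error therefore has no exact copy in the Rab6a transcript.

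The level of Rab6b was 5.99 RPKM in WT 1, 8.38 RPKM in WT 3 and 8.18 RPKM in WT 4. It was 1.42 RPKM in KO 2, 1.88 RPKM in KO 3 and 1.0 RPKM in KO 4. Every knockout library was below every wild-type library. These values rest on 1182, 2007 and 1769 reads in wild type and on 334, 453 and 194 reads in knockout. The group means were 7.52 ± 1.33 and 1.43 ± 0.44 RPKM (SD, n = 3 each), and the log2 fold change on the log2(RPKM + 0.5) scale was -2.06 ± 0.22 (SE, limma adjusted p = 0.00165). The call was made in 17 of 17 other settings of the fit, with log2 fold changes from -2.44 to -1.81. The authors' deposited table gives Rab6b a log2 fold change of -2.405 and an adjusted p of 0.00359, and it is the 1 gene of the 51 Rab genes in that table with an adjusted p under 0.05. In bulk RNA, fewer cells that carry a transcript and less of it per cell cannot be told apart.

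Rab6a was present at 57.3, 60.9 and 68.0 RPKM in wild type and at 54.5, 50.3 and 69.6 RPKM in knockout. Its groups overlapped (log2 fold change -0.10 ± 0.13 SE, limma adjusted p = 0.724). Rab6b thus made up 9.46%, 12.1% and 10.7% of the summed Rab6a and Rab6b level in the wild-type libraries. In the knockout libraries its share was 2.54%, 3.60% and 1.42%. The mean share went from 10.8% ± 1.32 to 2.52% ± 1.09 (SD, n = 3 each), with no overlap. An exact permutation test over libraries (two-sided) gave p = 0.1, the smallest that 3 against 3 allows, and 0.317 after adjustment over 19 such shares. Rab6a made up most of the pair in both genotypes.

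**Figure D1:**
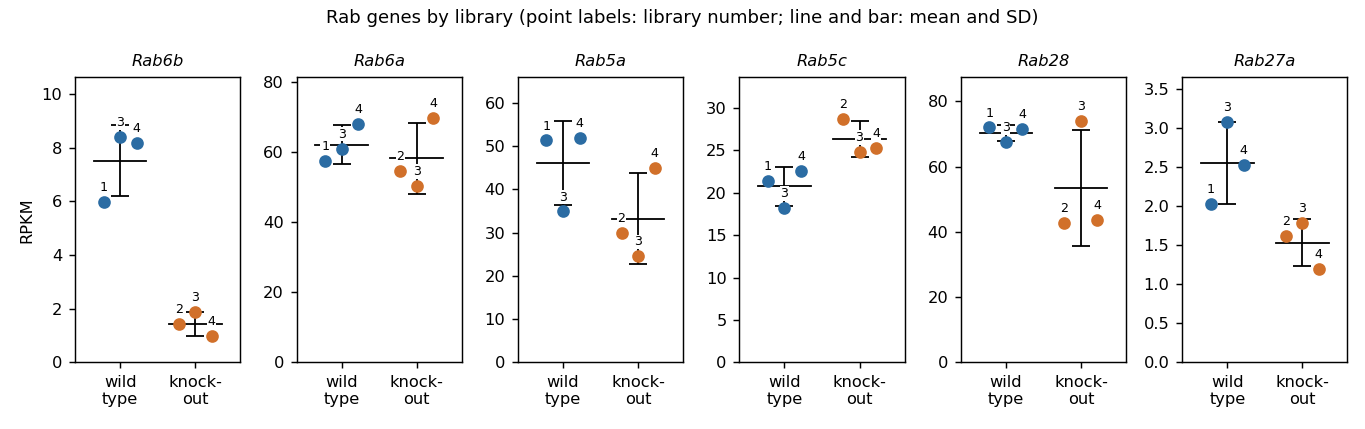
Levels of 6 Rab genes in RPKM (vertical axes, each from 0) in the 3 wild-type (blue) and 3 Stab1 knockout (orange) libraries, with the library number beside each point and the mean and SD as line and bar. The Rab6b points are 5.99 to 8.38 RPKM in wild type and 1.0 to 1.88 RPKM in knockout, while those of Rab6a overlap, and KO 3 stands apart from KO 2 and KO 4 for Rab28.

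No other gene near Rab6b was called. Within 500 kb, 9 genes passed the filter, none was called by limma and none had an unadjusted p under 0.05, with 3 log2 fold changes below 0. The nearest, Srprb, a subunit of the signal recognition particle receptor, starts 2.76 kb away and had 29.9 ± 3.21 RPKM in wild type and 33.0 ± 1.63 RPKM in knockout (SD, n = 3 each; limma adjusted p = 0.555). Slco2a1, a prostaglandin transporter of endothelium 15.7 kb away, had 249 ± 47.7 and 279 ± 34.7 RPKM (SD, n = 3 each; limma adjusted p = 0.572). Trf, which encodes transferrin, had the most negative of the 3, with a log2 fold change of -0.46 (limma adjusted p = 0.428).

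Single markers of other cells were called lower in the same comparison. Of 9 neuronal markers, 4 passed the filter, none was called by limma and all 4 had log2 fold changes below 0. Those of Rbfox3 (-0.04) and Mtap2 (-0.19) were small, and their groups overlapped. The summed level of the 9 was 20.5 to 24.3 RPKM in wild type and 13.8 to 19.7 RPKM in knockout. Tubb3, the neuronal tubulin, had 5.0, 4.52 and 4.84 RPKM against 3.08, 2.48 and 2.71 RPKM, with every knockout library lower (log2 fold change -0.70, limma adjusted p = 0.0637). Most of the sum was Stmn2, whose groups overlapped, at 17, 14.3 and 11.1 RPKM against 10.4, 8.55 and 14.1 RPKM. Elavl4 and Nefl were listed at 0 in all 6 libraries, and Snap25, a protein of synaptic vesicle fusion, reached at most 0.142 RPKM. Among 12 macrophage markers, 6 passed and Fcer1g, the gamma chain of Fc receptors, was called lower (log2 fold change -1.57, limma adjusted p = 0.00773), with sums of 398 to 451 RPKM in wild type and 258 to 355 RPKM in knockout. Of these 6, 2 had positive and 4 negative log2 fold changes. Fcer1g itself went from 224 to 78.9 RPKM in the mean, and without it the summed levels of the groups overlapped. Lyz2 (log2 fold change -0.78), Tyrobp (-0.51) and Spic (-0.30) were also negative. Vcam1 had 173 and 187 RPKM (0.11), and Hmox1 was at 0.04. Emr1 and Csf1r, which define macrophages, did not pass the filter and reached at most 0.155 and 0.118 RPKM. Of 12 reticular cell and fibroblast markers, 9 passed and Cxcl13, a chemokine of follicular stroma, was called lower (-1.91, limma adjusted p = 0.00159), with 3 positive and 6 negative log2 fold changes among the 9. The sum was 109 to 294 RPKM in wild type, highest in WT 1 (where Dcn alone had 96.1 RPKM) and lowest in WT 3, and 69.8 to 105 RPKM in knockout. Cxcl13 itself had 76.0, 67.6 and 43.7 RPKM in wild type and 19.1, 14.2 and 14.6 RPKM in knockout. Without Cxcl13 the summed levels of the groups overlapped. Of 9 smooth muscle and pericyte markers, all passed and Rgs5 of pericytes was called lower (-1.34, limma adjusted p = 0.0194). The list had 2 positive and 7 negative log2 fold changes, and the sums, 293 to 553 and 318 to 413 RPKM, overlapped. The 2 positive ones were Notch3 (0.51) and Cspg4 (0.18), so Rgs5 did not stand for the whole list. The part of these cells in the Rab6b result was not tested.

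The other Golgi and endoplasmic reticulum Rabs stayed under the threshold. This group has 16 genes, of which 12 were tested, with 4 positive and 8 negative log2 fold changes, a median of -0.15 against 0.03 over all genes tested, and Rab6b as the single call. Rab1b, which acts between the endoplasmic reticulum and the Golgi, had 197, 172 and 172 RPKM in wild type and 224, 231 and 193 RPKM in knockout. Its knockout range began just inside the wild-type range (log2 fold change 0.26 ± 0.10 SE, limma adjusted p = 0.269). The gene listed as Rab1, of the same step, leaned the other way with 125, 115 and 132 RPKM against 105, 93.3 and 128 RPKM (-0.20 ± 0.12 SE, limma adjusted p = 0.453). Rab1b accordingly made up 59.3% ± 2.37 of the pair in wild type and 66.4% ± 5.73 in knockout (SD, n = 3 each), with an exact permutation p of 0.2 (0.38 adjusted over 19 shares).

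Rab2a, which acts at the early Golgi, had 232, 187 and 219 RPKM in wild type and 178, 181 and 218 RPKM in knockout (log2 fold change -0.14, limma adjusted p = 0.563). Its paralog Rab2b had 21, 18.2 and 19.3 RPKM against 16.9, 18.1 and 17.6 RPKM, ranges that just missed each other (-0.15, limma adjusted p = 0.547). The share of Rab2b in the pair, 8.44% ± 0.407 and 8.43% ± 0.846 (SD, n = 3 each), was nearly the same in both genotypes. Rab18, of the endoplasmic reticulum and lipid droplets, had 141, 115 and 130 RPKM in wild type and 112, 98.3 and 129 RPKM in knockout (-0.19, limma adjusted p = 0.475). Of the scarcer genes, Rab43 (4.63 ± 1.62 and 5.75 ± 1.08 RPKM, SD, n = 3 each) and Rab30 (3.64 ± 0.678 and 3.13 ± 0.343 RPKM, likewise) also overlapped between the groups.

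**Figure D2:**
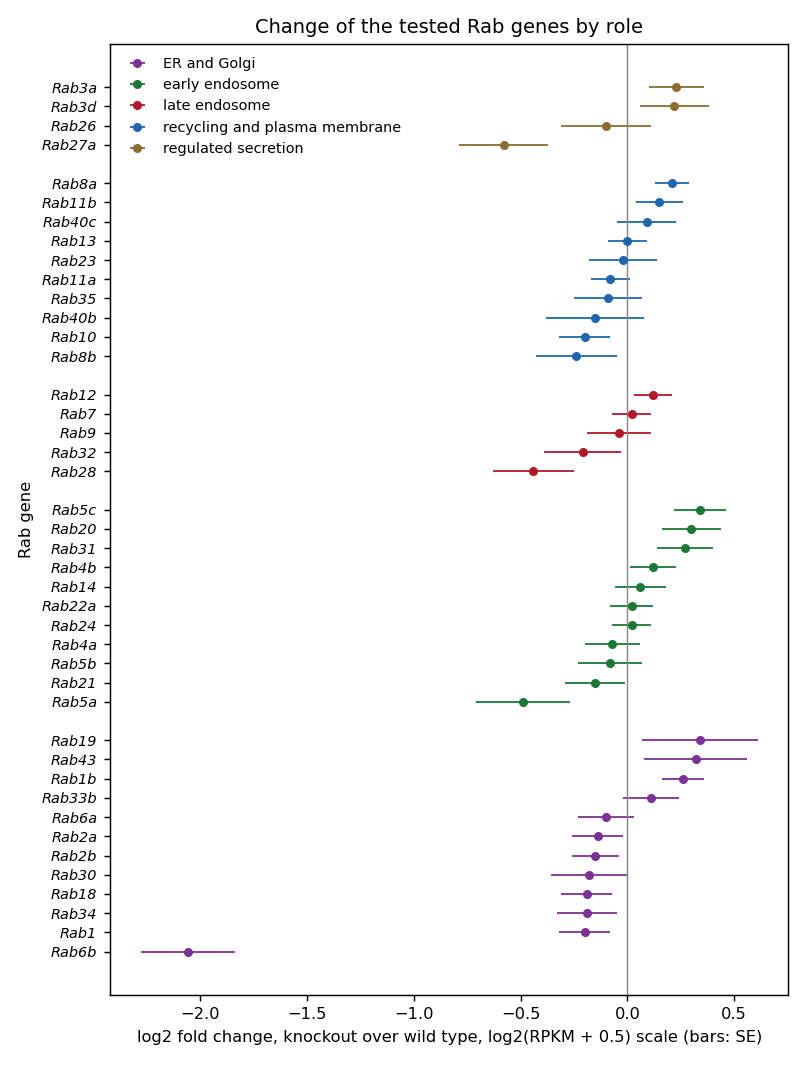
Log2 fold change of the 42 tested Rab genes, knockout over wild type (horizontal axis, log2(RPKM + 0.5) scale; bars are standard errors), grouped and coloured by role. Rab6b lies at -2.06, apart from the other 41, which lie within 0.58 of 0.

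In the early endosome group the paralogs Rab5a and Rab5c lay in opposite directions, without a call. All its 11 genes were tested, 7 with positive and 4 with negative log2 fold changes (median 0.02). Rab5a, which drives fusion of early endosomes, had 51.3, 34.9 and 51.9 RPKM in wild type and 30.0, 24.6 and 44.9 RPKM in knockout. KO 4 lay within the wild-type range (log2 fold change -0.49 ± 0.22 SE, limma adjusted p = 0.321). Rab5c, its close paralog (chr11:100715003-100738215), had 21.4, 18.2 and 22.6 RPKM in wild type and 28.7, 24.8 and 25.3 RPKM in knockout. Here every knockout library was above every wild-type library (0.34 ± 0.12 SE, limma adjusted p = 0.23).

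Rab5c was 25.8%, 28.0% and 27.3% of the summed Rab5a, Rab5b and Rab5c level in the wild-type libraries. Without Stab1 it was 42.1%, 42.0% and 31.8%. These groups did not overlap, and KO 4 was nearest to wild type (exact permutation p = 0.1, adjusted 0.317 over 19 shares). Rab5b had 10.2 ± 1.71 and 9.49 ± 0.222 RPKM (SD, n = 3 each). Across the 15 paralog families, 6 of the 19 shares reached the smallest p of 0.1: those of Rab6b, Rab5c, Rab3b, Rab4b, Rab11b and Rab31. This p goes with groups that do not overlap, which held for 20.3% of all single genes tested. No background was computed for shares, and Rab3b rests on 42 to 67 reads a library.

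Rab31 and Rab20 had higher means in knockout, also without a call. Rab31, which sorts cargo between the trans-Golgi and endosomes, had 27.1, 32.2 and 34.1 RPKM in wild type and 41.0, 38.6 and 33.1 RPKM in knockout (log2 fold change 0.27, limma adjusted p = 0.333). Rab22a had 33.9 ± 2.11 and 34.2 ± 1.81 RPKM (SD, n = 3 each). Rab20, known from phagosome maturation, had 45.9, 57.0 and 38.8 RPKM against 59.3, 57.6 and 55.5 RPKM, with WT 3 inside the knockout range (0.30, limma adjusted p = 0.322). Rab14, which cycles between the Golgi and endosomes, had 178, 156 and 209 RPKM against 179, 175 and 209 RPKM, which overlapped throughout (0.06, limma adjusted p = 0.84).

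No Rab placed in the late endosome and lysosome group was called, and 1 of them had an uneven knockout group. The group has 7 genes, of which 5 were tested, with 2 positive and 3 negative log2 fold changes (median -0.04). Rab7, the Rab of late endosomes, had 151, 134 and 133 RPKM in wild type and 140, 135 and 149 RPKM in knockout (0.02, limma adjusted p = 0.915). Rab9, which is known for retrieval from late endosomes to the Golgi, had 28.6 ± 4.46 and 27.8 ± 3.65 RPKM, and Rab12 had 68.7 ± 2.66 and 74.5 ± 2.89 RPKM (SD, n = 3 each).

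Rab28 had 72.0, 67.6 and 71.6 RPKM in wild type and 42.8, 74.1 and 43.6 RPKM in knockout. KO 3 was above all wild-type libraries while KO 2 and KO 4 were below them (log2 fold change -0.44 ± 0.19 SE, limma adjusted p = 0.293). Without KO 3 the log2 fold change was -0.70 and the adjusted p 0.0348 (limma), in a fit that called 0.507% of all genes. Rab28 had the lowest GC content of the tested Rabs with a transcript match (36.8%), and once each library's trends with GC content and length were removed its log2 fold change was -0.01 (limma adjusted p = 0.987).

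Recycling and plasma membrane Rabs included the most abundant member. Of 13 genes, 10 were tested, with 3 positive and 7 negative log2 fold changes (median -0.05). Rab11a (chr9:64715300-64737756), the Rab of recycling endosomes, had 361, 323 and 377 RPKM in wild type and 312, 339 and 351 RPKM in knockout (-0.08, limma adjusted p = 0.697). Rab11b was far lower, with 19.7, 18.6 and 18.0 RPKM against 20.6, 21.5 and 20.3 RPKM, and its groups did not overlap (0.15, limma adjusted p = 0.526). Rab25, the epithelial member of that family, was listed at 0 in all 6 libraries.

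Rab8a, which carries cargo from the Golgi to the surface, had 93.5, 92.3 and 91.5 RPKM in wild type and 111, 106 and 104 RPKM in knockout. The wild-type libraries were close to each other and all knockout libraries lay above them (log2 fold change 0.21 ± 0.08 SE, limma adjusted p = 0.264). Its paralog Rab8b had 13.9 ± 2.65 and 11.7 ± 2.49 RPKM (SD, n = 3 each). Rab10, of the exocytic path, had 89.0, 84.8 and 99.3 RPKM against 78.5, 68.9 and 91.7 RPKM (-0.20, limma adjusted p = 0.443). Rab13, which is known for junction traffic, had 147, 131 and 138 RPKM against 145, 129 and 141 RPKM, and its means of 139 and 138 RPKM were the closest among the 10 most abundant Rabs.

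The transcripts of the Rabs grouped under regulated secretion were mostly scarce. Of 9 genes, 4 were tested, with 2 positive and 2 negative log2 fold changes (median 0.06). Rab27a (chr9:73044810-73097623), which docks secretory granules at the surface and in endothelium acts on Weibel-Palade bodies, had 2.03, 3.08 and 2.53 RPKM in wild type and 1.62, 1.78 and 1.20 RPKM in knockout. All knockout libraries were below all wild-type libraries (log2 fold change -0.58 ± 0.21 SE, limma adjusted p = 0.218). Rab3a and Rab3d, of the same exocytic branch, leaned the other way. Rab3a had 14.1, 14.1 and 11.3 RPKM against 15.4, 15.4 and 15.7 RPKM, which did not overlap (0.23, limma adjusted p = 0.405), and Rab3d had 14.7 ± 3.12 and 17 ± 1.20 RPKM (SD, n = 3 each), which did.

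The filter left out 14 of the 56 Rab genes. Rab25 and Rab3c were listed at 0 in every library, and the other 12 reached at most 1.14 RPKM. The groups did not overlap for 4 of those 12 (Rab27b, Rab37, Rab44 and Rab3b), all lower in knockout. Over all 6648 genes above 0 and under the filter, 11.7% did not overlap and 8.86% were lower in that way. Rab27b, the second granule-docking Rab27, had 0.822, 1.14 and 0.443 RPKM (244, 412 and 144 reads) in wild type and 0.141, 0.155 and 0.340 RPKM (50, 56 and 99 reads) in knockout. Fitted with no filter its limma adjusted p was 0.228, and the authors' deposited table gives a log2 fold change of -1.972 with an adjusted p of 0.0909.

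Rab37, described in mast cell granules, had 0.641, 0.247 and 0.265 RPKM in wild type and 0.107, 0.0351 and 0.0873 RPKM in knockout, from 75, 35 and 34 reads against 15, 5 and 10 reads. Its limma adjusted p was 0.251 with no filter. Rab38, which with Rab32 serves melanosomes and the dense granules of platelets, had 0.380, 0.577 and 0.222 RPKM against 0.0510, 0.0998 and 0.264 RPKM, with KO 4 inside the wild-type range. Rab44 had 0.193, 0.169 and 0.256 RPKM against 0.167, 0.0815 and 0.0179 RPKM, and WT 3 and KO 2 differed by 1 read (35 and 34). Rab3b had 0.412, 0.363 and 0.442 RPKM against 0.254, 0.356 and 0.310 RPKM, so WT 3 and KO 3 nearly met. Rab15, Rab17, Rab33a, Rab36, Rab39, Rab39b and Rab9b overlapped between the groups.

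Platelet markers had lower sums in the knockout libraries too. All 13 megakaryocyte and platelet markers passed the filter, 12 had log2 fold changes below 0 (median -0.84), and Pf4, a chemokine of platelet alpha granules, was called lower at 52.3, 88.4 and 36.3 RPKM against 18.4, 15.4 and 19.2 RPKM (log2 fold change -1.62, limma adjusted p = 0.016). Their summed level was 111 to 317 RPKM in wild type and 76.7 to 99.6 RPKM in knockout, with none of the 13 at 0. WT 3 was highest of all libraries for the platelet sum, Rab27b and Rab38, while WT 1 was highest for Rab37 and WT 4 for Rab44 and Rab3b. Of 11 erythroid markers in the table, 5 passed, all with log2 fold changes below 0, and none was called by limma. Their list summed to 36.4 to 128 RPKM in wild type and 19.5 to 96.2 RPKM in knockout. Car1 had 39.2, 39.2 and 5.49 RPKM against 10.6, 1.36 and 0.51 RPKM (-2.94, limma adjusted p = 0.157). The alpha globin genes Hba-a1 and Hba-a2 were listed at 0, but the beta globin gene Beta-s had 33.4, 17.6 and 9.52 RPKM against 36.7, 18.9 and 7.24 RPKM (-0.04). The part of platelet RNA in the levels of these Rabs was not tested.

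**Figure D3:**
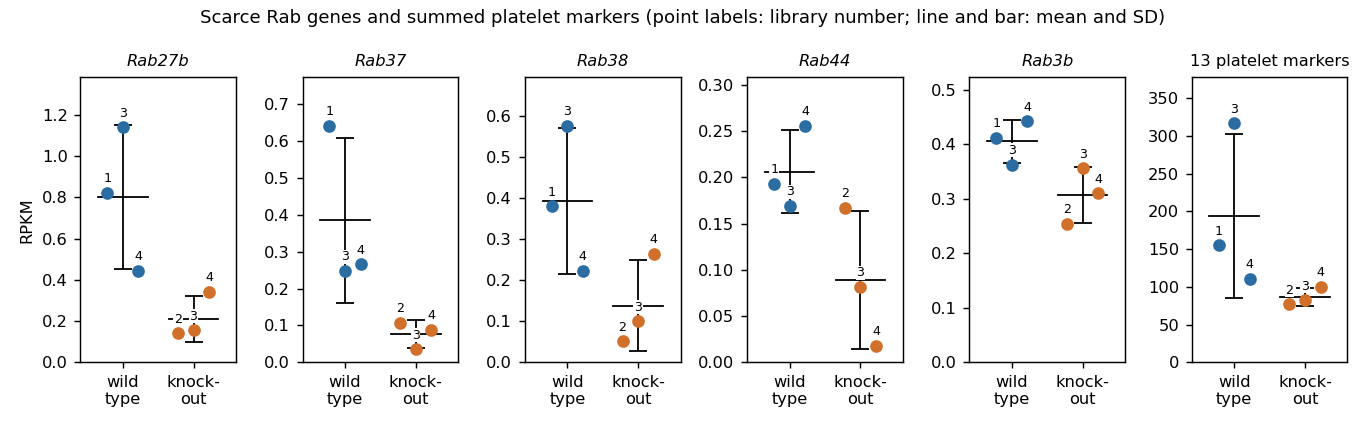
Levels of 5 scarce Rab genes and the summed level of 13 platelet markers in RPKM (vertical axes, each from 0), by genotype, with the library number beside each point and the mean and SD as line and bar. For Rab27b, Rab37, Rab44, Rab3b and the platelet sum all knockout points lie below all wild-type points, and for Rab38 KO 4 lies at 0.264 RPKM, above WT 4 at 0.222 RPKM.

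The order of the Rab genes by level was led by the recycling and early secretory members. Over the 6 libraries 8 genes had a mean above 100 RPKM, 24 between 10 and 100, 10 between 1 and 10, and 14 at or under 1. The first 10 were Rab11a, Rab2a, Rab1b, Rab14, Rab7, Rab13, Rab18, Rab1, Rab8a and Rab10. Rab11a (312 to 377 RPKM) stood apart from Rab2a (178 to 232 RPKM), and Rab14 (156 to 209 RPKM) from Rab7 (133 to 151 RPKM). Of the 41 neighbouring pairs in the order, 38 had overlapping ranges, the third exception being Rab5b and Rab43, so most ranks next to each other were not distinct. The length by which Rab7 was scaled was 624 bases and that of Rab4b 292 bases, both shorter than their transcripts, and their places in the order depend on this.

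The 8 most abundant Rabs held 58.1% to 60.6% of the summed Rab level in each library. That sum was 2450 ± 134 RPKM in wild type and 2410 ± 81.0 RPKM in knockout (SD, n = 3 each), a difference smaller than either spread. By role, recycling and plasma membrane Rabs summed to 759 ± 35.9 and 742 ± 24.2 RPKM, endoplasmic reticulum and Golgi Rabs to 776 ± 51.8 and 749 ± 42.0 RPKM, and early endosome Rabs to 569 ± 40.7 and 585 ± 21.7 RPKM (SD, n = 3 each). Late endosome Rabs summed to 311 ± 14.3 and 300 ± 14.0 RPKM and secretory Rabs to 33.5 ± 4.26 and 35.9 ± 1.21 RPKM. In every role the difference was smaller than the larger SD.

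**Figure D4:**
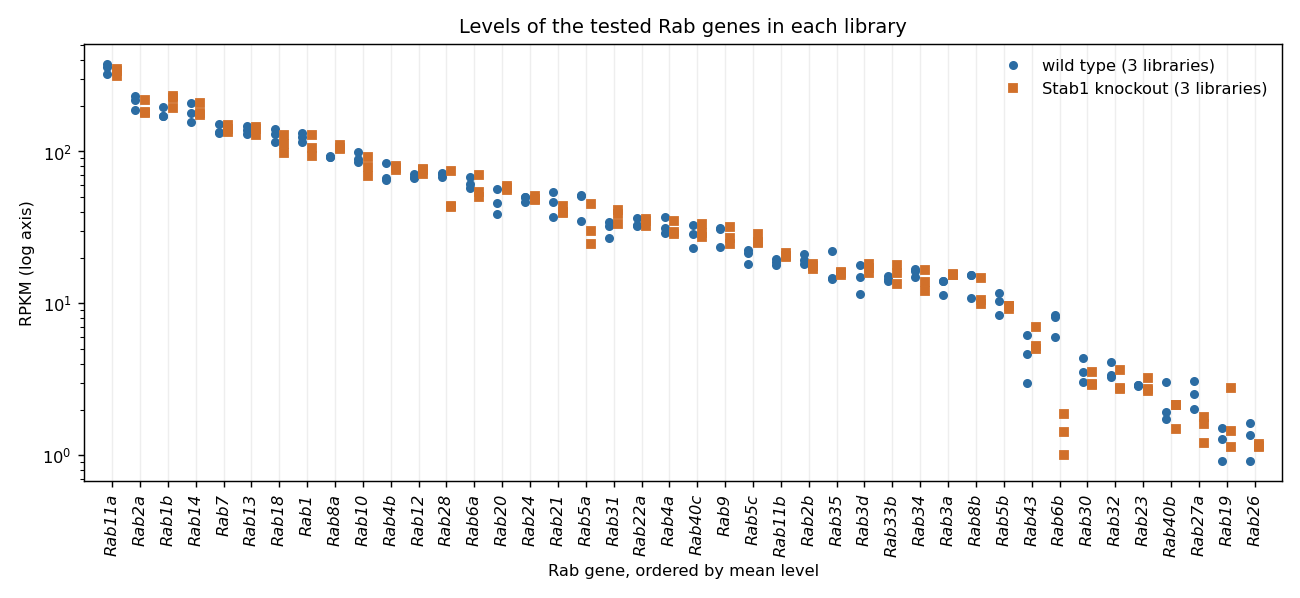
Levels of the 42 tested Rab genes in RPKM (log axis), ordered by their mean over the 6 libraries, with wild type as blue circles and Stab1 knockout as orange squares. Rab11a leads with 312 to 377 RPKM, and Rab6b is the gene whose groups are farthest apart on this axis.

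Most measured differences between the genotypes were small. Among the 42 tested, 18 had positive and 24 negative log2 fold changes, with a median of -0.05 against 0.03 over all genes tested. The log2 fold change was under 0.3 in size for 35 of the 42, against 76.1% of all genes. The groups did not overlap for 7 of the 42 (16.7%): Rab5c, Rab8a, Rab3a and Rab11b were higher in every knockout library, and Rab6b, Rab27a and Rab2b lower. Over all genes tested 20.3% did not overlap (10.7% higher, 9.57% lower). The median standard error of a Rab log2 fold change was 0.133, so a p above the threshold does not show that a gene was the same in both genotypes.

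The direction of the small differences was related to GC content. For 41 tested Rabs with a matched transcript, whose GC content ran from 36.8% to 59.5%, the log2 fold change and the GC content had a Pearson r of 0.25 and a Spearman rho of 0.52 across genes, and without Rab6b an r of 0.54 and a rho of 0.57 (40 genes). Over 10939 genes r was 0.39. The genes share the same 6 libraries and are not independent replicates. Of the 21 Rabs at or under the median of 48.9% GC, 6 had positive and 15 negative log2 fold changes (median -0.14), and of the 20 above it 12 had positive and 8 negative ones (median 0.10). With the trends in GC content and length removed, 25 were positive and 16 negative, and 11 genes changed sign.

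Among the tested Rabs, 4 of the 6 libraries carried such trends within a genotype too. Across the same 41 Rabs, the deviation of a library from its group mean had an r with GC content of 0.39 in WT 3, -0.49 in WT 4, 0.41 in KO 2 and -0.40 in KO 4, and close to 0 in WT 1 (-0.02) and KO 3 (0.07). Over 10939 genes this r was 0.42 in KO 3 and -0.07 in WT 1. It was 0.26 in WT 3, -0.24 in WT 4, 0.18 in KO 2 and -0.54 in KO 4. The r near 0 in KO 3 thus held for the Rabs and not for all genes. Across the Rabs the Spearman rho of KO 3 was 0.22, so how near 0 it lay depended on the coefficient. Deviations from a group mean cancel within the group, so the values of its libraries are not independent. Rab6b, at 51.4% GC, kept its call with the trends removed. Rab1b lies at the high end and Rab11a and Rab18 at the low end of the GC range, and the last of these changed sign to 0.23 when the trends were removed, as did Rab11a, also to 0.23. The part of GC content in the other differences was not tested beyond this fit.

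**Figure D5:**
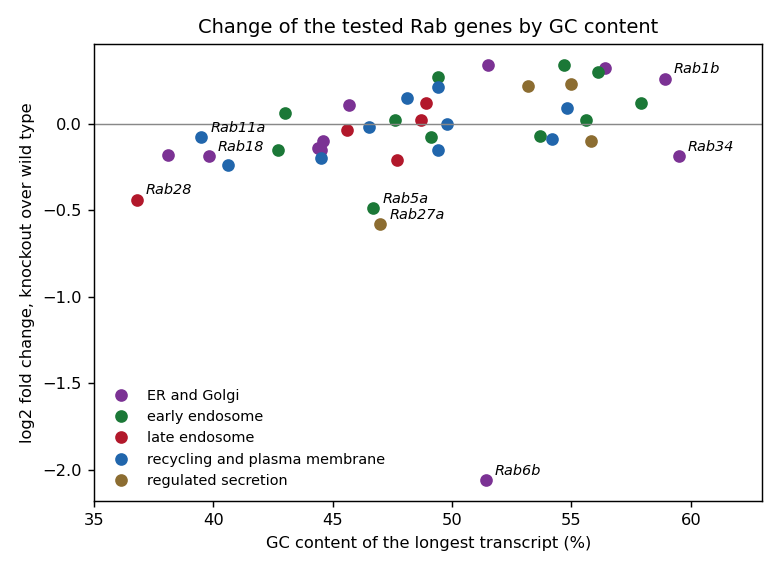
Log2 fold change of 41 tested Rab genes, knockout over wild type (vertical axis), against the GC content of the gene's longest transcript in percent (horizontal axis), coloured by role. Apart from Rab6b, at -2.06, genes of lower GC content lie more often below 0 and those of higher GC content above 0.

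The machinery that loads, unloads and reads Rabs had 1 call over all the lists below, the largest with 46 genes tested. Over all genes tested 1.94% were called, so 1 call in these lists together is no excess over that share. Among the genes for Rab prenylation, GDI and its displacement, 8 of 9 were tested and none was called by limma (median log2 fold change 0.04). Chm, the Rab escort protein that presents new Rabs for prenylation, had 5.40, 5.94 and 7.60 RPKM in wild type and 3.84, 3.44 and 5.04 RPKM in knockout, which did not overlap (-0.57, limma adjusted p = 0.202). Of 50 exchange factor genes, 46 were tested and none was called, with 32 positive and 14 negative log2 fold changes (median 0.11). Of the 46, 8 had an unadjusted p under 0.05, near the 15.7% of all genes tested. Rinl, an exchange factor of the Rab5 branch, had 22.1, 27.0 and 24.7 RPKM against 32.0, 35.6 and 29.4 RPKM, with all knockout libraries higher (0.39, limma adjusted p = 0.165).

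Of 35 GTPase-activating protein genes, 27 were tested and none was called by limma (median 0.03). Of the 27, 6 had an unadjusted p under 0.05, against 15.7% of all genes tested. Tbc1d4 (AS160), which acts on exocytic Rabs such as Rab10, had 7.56, 8.81 and 7.34 RPKM in wild type and 10.9, 11.2 and 10.6 RPKM in knockout (0.44, limma adjusted p = 0.155). Evi5 lay the other way, with 12.7, 12.5 and 14.6 RPKM against 8.16, 6.22 and 11.6 RPKM and every knockout library lower (-0.62, limma adjusted p = 0.184). The kinases and phosphatases that modify Rabs (5 of 5 tested, median -0.03) and the Rab-like genes outside the naming rule (5 of 7 tested, median 0.12) had no call and no gene with an unadjusted p under 0.05.

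Endosomal effectors (28 of 28 tested, median 0.18) had no call either. Eea1, the tether that Rab5 recruits to early endosomes, had 3.82, 4.33 and 5.24 RPKM in wild type and 2.65, 1.83 and 2.45 RPKM in knockout, with every knockout library lower (log2 fold change -0.82 ± 0.19 SE, limma adjusted p = 0.0689). Rabep1 (rabaptin-5), another Rab5 effector, had 25.5, 23.4 and 27.9 RPKM against 14.9, 13.8 and 20.8 RPKM, again without overlap (-0.64, limma adjusted p = 0.0861). Appl1, which binds Rab5 on a separate set of endosomes, had 9.32, 7.26 and 7.55 RPKM against 4.14, 4.71 and 6.49 RPKM (-0.62, limma adjusted p = 0.157). These 3 are the members of that list with the smallest p, and 20 of its 28 genes had positive log2 fold changes.

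Among effectors of recycling and secretion, 19 of 37 were tested and none was called by limma (median 0.13). Rph3al (Noc2), which binds Rab3 and Rab27, had 9.68, 12.0 and 11.6 RPKM in wild type and 16.3, 16.2 and 15.3 RPKM in knockout (0.51, limma adjusted p = 0.0946). Exoc5, a subunit of the exocyst tether, had 29.1, 28.9 and 37.9 RPKM against 16.4, 16.1 and 25.9 RPKM (-0.72, limma adjusted p = 0.102), so these exocytic genes pointed in opposite directions. Exoc7 and Exoc3, other subunits of that tether, were positive (0.26 and 0.23, limma adjusted p = 0.289 and 0.398). Of the 19 tested genes of the list, 12 had positive and 7 negative log2 fold changes.

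Golgi effectors held the 1 call of these lists. Of 18 genes, 17 were tested, 7 with positive and 10 with negative log2 fold changes (median -0.13). Gcc2 (GCC185), a golgin of the trans-Golgi, had 4.98, 4.03 and 3.75 RPKM in wild type and 1.83, 1.82 and 2.53 RPKM in knockout. Its groups did not overlap and it was called lower (log2 fold change -0.90 ± 0.19 SE, limma adjusted p = 0.0481). The call was lost in 10 of 16 other settings, with limma adjusted p up to 0.208 without KO 3. In 9 of those 10 the log2 fold change was still -1.02 to -0.79, and with GC and length trends removed it was -0.52 (limma adjusted p = 0.14). Golgb1 (giantin), with 4.59, 4.88 and 5.03 RPKM against 2.56, 2.65 and 3.64 RPKM, was not called (limma adjusted p = 0.118). Tmf1, a golgin that binds Rab6, was not called at 9.70, 11.4 and 13.4 RPKM against 7.34, 7.02 and 8.21 RPKM (limma adjusted p = 0.113).

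Rab6 partners, a list of 15 genes that overlaps the Golgi effectors, had 14 tested, Gcc2 as the call and a median of -0.10, with 6 positive and 8 negative log2 fold changes. Dctn1, the dynactin subunit p150, had 21.8, 39.7 and 28.2 RPKM in wild type and 45.3, 43.9 and 32.0 RPKM in knockout (0.45, limma adjusted p = 0.332), and its groups overlapped. The partners of Rab6 other than Gcc2 thus had no call beside the fall of Rab6b.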

How the data were processed

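RNA was taken from endothelial cells sorted as CD31-positive and CD45-negative from spleens, and libraries were made with the SMART-Seq v4 and Nextera XT kits, per the labels' protocols. mm10 is the build in the submitters' processing notes, which also list STAR (2.5.2b), Subread, limma and edgeR without their roles. The authors deposited a table of normalized values (RPKM, a unit read from the values since the header does not name it) and a table of their own comparison, whose columns hold log2 fold changes, p-values and adjusted p-values. The column numbers of the table do not match the replicate numbers of the labels, so columns were assigned to a genotype only, 3 per group. For all 17683 genes above 0 the deposited RPKM values gave whole reads per gene within 0.001 (100% of these genes), taking reads to have no common factor across libraries, and these reads give the depth.

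Genes with at least 1 RPKM in 3 libraries (11035) were tested with limma 3.58.1 in R 4.3.3 on log2(RPKM + 0.5), with an intensity trend and Benjamini-Hochberg adjustment over all genes tested (threshold 0.05). Fold changes on this scale understate those of low genes. The fit was tested on simulated data. voom on the recovered reads called 240 genes. Paralog shares were compared with exact two-sided permutation tests (Python 3.11.15, numpy 2.4.6). Positions came from RefSeq GRCm38.p6 by gene ID for 55 of 56 Rab genes, and "Rab1" was left without a position or GC value. GC content and lengths came from GENCODE M21 transcripts. No stranded counting is stated, and the kit does not mark strand, so reads of a gene and of an overlapping antisense gene cannot be told apart. Named genes were those called, those without overlap and a change of at least 1.5-fold, the 10 most abundant Rabs, up to 4 genes of smallest p in each other list, and genes within 500 kb of a called Rab. Further Rabs were described by role. The role groups were assigned from a prepared list of genes and not read from the data. The Rab genes, the other lists and the alternatives were chosen with earlier results of these data known.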

Additional observations from a re-analysis of the deposited data

How the results depend on the processing

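Rab6b was called lower in all 17 alternatives (limma adjusted p from 1.91e-05 to 0.0271), and so was Stab1. The count of Rab genes called stayed at 1 except with library quality weights, where 19 were called (7 higher and 12 lower) among 3653 of all genes, and without KO 3, where Rab28 made it 2 (leave-one-out range 1 to 2, all lower, with 0 higher). Over all genes 214 were called, 77 with no filter, and 56 (without KO 3) to 418 (without KO 4) when 1 library was left out, with 93 without WT 4 and 83 without KO 2. Small log2 fold changes turned sign. With GC and length trends removed, Rab11a was 0.23, Rab18 0.23, Rab6a 0.01 and Rab13 0.02. Rab13 was 0.01 with median centring, 0.03 with quality weights, and 0.04 and 0.05 without WT 1 and KO 3. Rab14 was -0.02 with quantile normalization, -0.15 with quality weights, and -0.05 and -0.02 without WT 3 and KO 4 (range with 1 library left out -0.05 to 0.17). Rab7 was -0.04 with quantile normalization, -0.01 with voom, and -0.01 to -0.00 without WT 3, WT 4 or KO 4 (range with 1 library left out -0.01 to 0.08). The summed Rab level differed by -36.6 RPKM, and by -114 to 9.47 RPKM with 1 library left out. The cause of these shifts was not tested. The column numbers are not the replicate numbers of the labels, but 3 and 4 occur in both groups. A replicate block by column number, chosen after seeing the data, rests on these 4 libraries with 1 residual degree of freedom. It called 355 genes and Rab6b as the single Rab gene (log2 fold change -2.21, limma adjusted p = 0.000494), Rab13 was 0.01, and Gcc2 was not called (-0.73, limma adjusted p = 0.104). Deviations from the group means over all genes had an r of 0.19 between WT 3 and KO 3 and 0.19 between WT 4 and KO 4, and of -0.16 to 0.09 between the other libraries of the 2 groups. With 2 such pairs this does not show that the numbers pair the samples. Scarce Rabs rest on few reads (5 to 75 a library for Rab37, 4 to 46 for Rab38), which limits their precision.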
